A study of Rattus norvegicus with 9 samples.

Results

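The complement genes followed were C1qa, C1qb and C1qc (the chains of C1q), C1r and C1s (the proteases of the C1 complex), C2 and Cfb (the proteases of the C3 convertases), C3, and Serping1 (C1 inhibitor). They were found in the deposited table by symbol, ignoring case. These 9 symbols matched 10 of the table's 32883 entries, because Cfb was listed under 2 Ensembl identifiers, and all 10 entries were among the 15517 that passed the filter on low counts.

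In the study, rats drank water with 3,3'-iminodipropionitrile (IDPN), which damages vestibular hair cells, and RNA from the dissected vestibular epithelium was sequenced by SMARTseq2. It chose 3 weeks as an early step of hair cell detachment and 7 weeks as a later one, when hair cell extrusion begins. The 3 groups were adult male Long-Evans rats given plain drinking water (Control), 20 mM IDPN in the drinking water for 3 weeks (IDPN-3wk) or 20 mM IDPN for 7 weeks (IDPN-7wk). Each group had 3 libraries, and each library held the 6 cristae and 2 utricles of 1 rat. Age in weeks was not stated for these rats. The sample titles hold a code that several rats share, 1 code for all 3 Control rats, 1 for IDPN-3wk 2 and 3, 1 for IDPN-7wk 2 and 3, and 1 for IDPN-3wk 1 and IDPN-7wk 1. What the code marks was not stated, and since no exposed rat has the code of the Control rats, it cannot be told apart from exposure in any comparison with Control. The single Control group held animals taken at both time points, and the labels do not say which was which, so every comparison with Control used the same animals and no effect of age could be separated. Library totals ran from 31100118 to 46018385 estimated counts, and 3 counts corresponded to 0.0611 to 0.101 CPM (counts scaled to library size, after normalization for library composition).

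Complement is a cascade of secreted proteins that mark targets for uptake and can open pores in membranes. C1q binds antibodies and altered surfaces, C1r then activates C1s, and C1s cleaves C4 and C2 to form the C3 convertase of the classical pathway. Factor B, the product of Cfb, supplies the protease of the alternative pathway convertase, both convertases cleave C3, and C1 inhibitor blocks C1r and C1s. Plasma complement comes mainly from the liver, but C1q is made chiefly by macrophages and related myeloid cells, which reside in and beneath the sensory epithelia of the inner ear, and many tissues make other components locally.

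Before any test, 3 libraries stood apart. At an equal depth of 31100118 counts, Control 3, IDPN-3wk 1 and IDPN-3wk 2 had 15464, 15498 and 15387 detected genes, and the other 6 libraries had 16834 to 17312. All libraries carry the same batch label, and the fewer detected genes were not tested as a cause of any result. Values without these 3 libraries are given below beside several results.

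In the RefSeq assembly GRCr8 the members lie in 3 runs of neighbours, C1qb, C1qc and C1qa on chromosome 5, C1r and C1s on chromosome 4, and C2 and Cfb on chromosome 20, with 0 annotated genes between neighbours. C3 lies on chromosome 9 and Serping1 on chromosome 3. Promoter sequences (250 bases before to 50 bases after the start) were available from RefSeq for 4 of the 9 members and are printed because C1q chains and C1 proteases were among the members that were high together at 7 weeks. C1qc, C1s, C2, Cfb and Serping1 had none in that table. Searched on both strands were 5 motifs, namely the interferon response element core (GAAA, any 2 bases, GAAA), the STAT palindrome (GAS, TTCNNNGAA), a C/EBP element (TTGCNNAA), a degenerate NF-kB element and the PU.1 core (GAGGAA). They occurred in 3.92%, 8.87%, 10.6%, 7.51% and 27.6% of the 33469 promoters in the table. The motifs were chosen with the sequences already seen. NF-kB was first searched in a looser form (GGG, any 5 bases, CC), which matched 47.3% of all promoters and all 4 member promoters, and that form was replaced after its matches were seen. Capitals mark the matches in the sequences, which run 5′ to 3′ along the gene's strand: C1qa at chr5:154419884-154420183 (minus strand), C1qb at chr5:154407778-154408077 (minus), C1r at chr4:159098763-159099062 (plus) and C3 at chr9:2201290-2201589 (minus).

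C1qa: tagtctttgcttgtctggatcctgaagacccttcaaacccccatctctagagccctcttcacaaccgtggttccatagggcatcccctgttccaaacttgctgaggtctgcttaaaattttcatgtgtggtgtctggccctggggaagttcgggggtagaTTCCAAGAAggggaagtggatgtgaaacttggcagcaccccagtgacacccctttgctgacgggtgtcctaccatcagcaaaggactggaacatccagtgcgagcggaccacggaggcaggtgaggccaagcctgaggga

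C1qb: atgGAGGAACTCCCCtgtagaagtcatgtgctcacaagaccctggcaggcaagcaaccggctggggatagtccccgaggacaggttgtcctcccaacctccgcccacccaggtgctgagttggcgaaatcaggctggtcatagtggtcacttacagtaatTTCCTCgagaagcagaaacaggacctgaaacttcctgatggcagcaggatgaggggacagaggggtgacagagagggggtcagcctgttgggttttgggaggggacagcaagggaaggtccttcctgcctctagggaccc

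C1r: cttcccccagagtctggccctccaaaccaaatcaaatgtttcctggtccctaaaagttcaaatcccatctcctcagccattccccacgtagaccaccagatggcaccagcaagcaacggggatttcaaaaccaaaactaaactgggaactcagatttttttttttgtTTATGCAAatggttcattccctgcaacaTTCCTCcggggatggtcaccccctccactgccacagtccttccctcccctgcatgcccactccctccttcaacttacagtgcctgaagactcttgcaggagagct

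C3: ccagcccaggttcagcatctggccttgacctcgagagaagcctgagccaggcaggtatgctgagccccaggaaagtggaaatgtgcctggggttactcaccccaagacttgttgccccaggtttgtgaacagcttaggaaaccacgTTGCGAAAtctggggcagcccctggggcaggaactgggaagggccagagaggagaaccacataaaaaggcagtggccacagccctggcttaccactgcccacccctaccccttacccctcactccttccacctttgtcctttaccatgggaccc

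With the first transcribed base numbered 1 and the base before it -1, the C1qa window held a GAS match from -90 to -82. The C1qb window held an NF-kB match on the opposite strand from -245 to -236, which overlapped a PU.1 match on the gene's strand from -247 to -242, and another PU.1 match on the opposite strand from -90 to -85. In C1r, a C/EBP match lay from -83 to -76 and a PU.1 match from -55 to -50, both on the opposite strand. C3 held a C/EBP match from -104 to -97. The interferon response element core had 0 matches in these 4 windows. A match describes letters only, and binding was not measured.

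**Figure D1:**
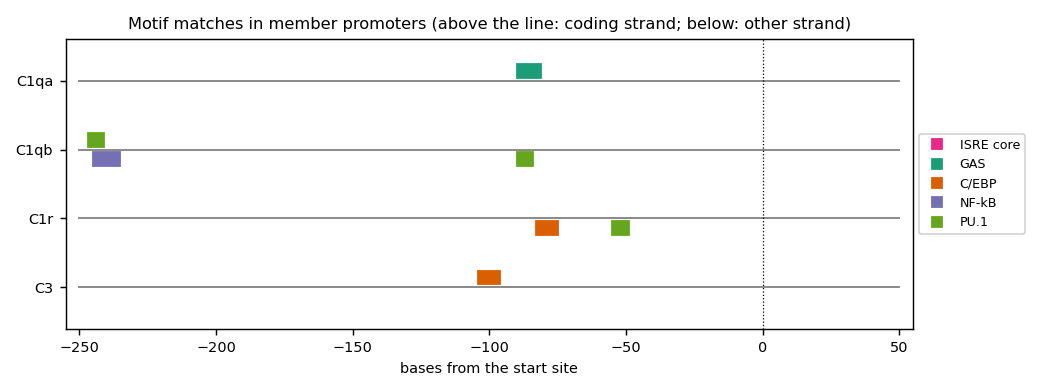
Position of each motif match in the 4 member promoters, in bases from the start site (dotted line), with matches on the gene's strand above each line and those on the opposite strand below. The C1qa match lies from -90 to -82 and the C/EBP match of C1r from -83 to -76.

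Taken by group means, IDPN-7wk was the highest of the 3 groups for all 10 entries. A call below means an adjusted p under 0.05 (edgeR quasi-likelihood test, Benjamini-Hochberg adjustment over the 15517 genes) with a fold change above 1.5. At 3 weeks 1 of the 10 entries was called against Control, Serping1, which was higher. Of all genes tested, 1.65% were called in that comparison, 0.438% as higher. At 7 weeks 5 of 10 were called, all higher (C1qb, C1r, C1s, the abundant Cfb entry and Serping1), against 5.13% of all genes, 2.00% as higher. Between 7 and 3 weeks 2 of 10 were called, both higher at 7 weeks (the abundant Cfb entry and C1r), against 0.483% of all genes, 0.348% as higher. These shares of all genes depended on single libraries. The 256 calls at 3 weeks became 77, 75 and 168 without Control 1, 2 and 3, 439 without IDPN-3wk 3 and 165 without IDPN-7wk 3. Those at 7 weeks, 796, became 506 and 508 without Control 1 and 2, and 432 and 508 without IDPN-7wk 1 and 3. The 75 between 7 and 3 weeks became 445 without IDPN-3wk 3, and 42 and 39 without IDPN-7wk 1 and 3.

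Every library of the exposed group lay above every Control library for 2 of 10 entries at 3 weeks (8.78% of all genes) and for 10 of 10 at 7 weeks (17.2%). Every IDPN-7wk library lay above every IDPN-3wk library for 7 of 10 (12.1%). The median log2 difference of the 10 entries was 0.13 at 3 weeks, 1.21 at 7 weeks and 0.83 between 7 and 3 weeks, and that of all genes tested was -0.000467, 0.00970 and 0.00819. These comparisons share libraries, so their values are not independent. In bulk tissue, more or fewer cells of a type and more or less RNA per cell cannot be told apart, for any of these genes.

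**Figure D2:**
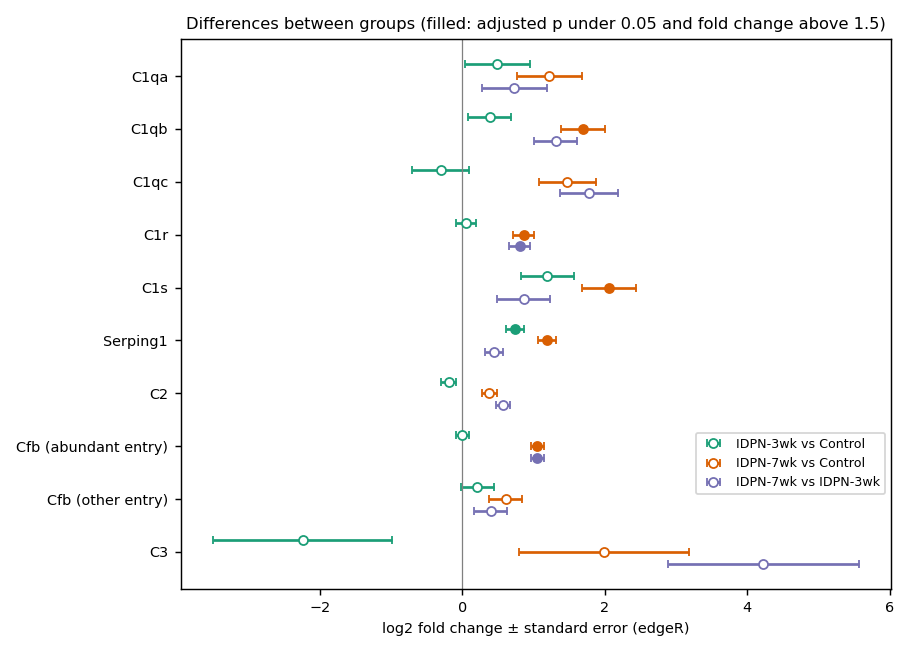
Log2 fold change of each entry in the 3 comparisons (x axis), with bars of 1 standard error from edgeR; filled points passed the adjusted p and fold change thresholds. The abundant Cfb entry lies at -0.00 at 3 weeks and at 1.05 at 7 weeks, with narrow bars, and C3 has the widest bars.

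C1qb, the B chain of C1q, measured 18.8, 8.96 and 13.4 CPM in Control 1 to 3, 17.6, 24.2 and 11.9 CPM in IDPN-3wk 1 to 3, and 45.0, 48.3 and 40.2 CPM in IDPN-7wk 1 to 3. All IDPN-7wk libraries lay above the other 6, and the Control and IDPN-3wk libraries overlapped. C1qb rose at 7 weeks by a log2 fold change of 1.70 (SE 0.31, 3.24-fold, adjusted p = 0.00958), and the call held with each library left out in turn (adjusted p 0.00735 to 0.0387). At 3 weeks its log2 difference was 0.38 (SE 0.30, adjusted p = 0.589), which ran from 0.11 without IDPN-3wk 2 to 0.68 without Control 1 and was -0.22 without the 3 libraries with fewer detected genes, so its sign was not stable.

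C1qc, the C chain, measured 14.9, 11.5 and 12.9 CPM in Control, 4.41, 18.1 and 9.50 CPM in IDPN-3wk, and 41.5, 36.5 and 31.2 CPM in IDPN-7wk. C1qa, the A chain, measured 8.28, 6.20 and 8.58 CPM in Control, 5.31, 20.8 and 6.30 CPM in IDPN-3wk, and 19.6, 18.8 and 15.4 CPM in IDPN-7wk. For both chains the IDPN-7wk libraries lay above all Control libraries, and IDPN-3wk 2 was well above the other IDPN-3wk libraries. For C1qa, IDPN-3wk 2 was also above all of IDPN-7wk. With all libraries edgeR called neither chain at 7 weeks, the log2 differences being 1.48 for C1qc (SE 0.40, adjusted p = 0.0628) and 1.22 for C1qa (SE 0.46, adjusted p = 0.173). DESeq2 called C1qc at 7 weeks (adjusted p = 0.00456) and did not call C1qa (0.0708). Under other edgeR settings, C1qc was called with no filter (adjusted p = 0.0479) and with at least 10 counts in every library (0.0365), and a fit of only the 2 groups compared called both chains (0.00202 for C1qc and 0.00927 for C1qa), as did the fit without the 3 libraries with fewer detected genes (0.00167 and 0.00560). Without IDPN-3wk 2, which enters through the shared estimate of the spread, both were called at 7 weeks (adjusted p = 0.0140 for C1qc and 0.0116 for C1qa) and also between 7 and 3 weeks, where C1qc reached 2.39 (adjusted p = 0.0244) and C1qa 1.63 (adjusted p = 0.0390) on the log2 scale. Without IDPN-3wk 1, C1qc was called at 7 weeks (adjusted p = 0.00822). Over the 9 fits that each left out 1 library, the adjusted p at 7 weeks ran from 0.00822 to 0.204 for C1qc and from 0.0116 to 0.409 for C1qa.

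Between 7 and 3 weeks, with all libraries, edgeR called 0 of the 3 chains, with 2 of 3 at an unadjusted p under 0.05 and 2 called by DESeq2. The log2 differences were 1.77 for C1qc (SE 0.41, adjusted p = 0.107), 1.31 for C1qb (SE 0.30, adjusted p = 0.107) and 0.73 for C1qa (SE 0.45, adjusted p = 0.523). At 3 weeks edgeR and DESeq2 both called 0 of 3, and 0 of 3 had an unadjusted p under 0.05. C1qc had a 3-week log2 difference of -0.30 (SE 0.40) and C1qa one of 0.49 (SE 0.46), with overlapping groups, and neither sign was stable. Without IDPN-3wk 2 these values were -0.91 and -0.41, and without IDPN-3wk 1 they were 0.07 and 0.81. Within the 6 libraries with more detected genes (3 IDPN-7wk, 2 Control, 1 IDPN-3wk), the difference in mean log2 of CPM plus 2 between IDPN-7wk and Control was 1.62 for C1qb, 1.34 for C1qc and 1.11 for C1qa.

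Macrophage markers were set beside the C1q chains in each library. Summed over the 3 chains, C1q measured 42.0, 26.6 and 34.8 CPM in Control, 27.4, 63.1 and 27.7 CPM in IDPN-3wk, and 106, 104 and 86.7 CPM in IDPN-7wk. The sum of 20 macrophage markers was 325, 253 and 383 CPM in Control, 141, 515 and 219 CPM in IDPN-3wk, and 826, 657 and 611 CPM in IDPN-7wk. IDPN-3wk 2 was the highest of its group in both sums, and IDPN-7wk was above the other libraries in both. Within Control the orders differed, with the C1q sum highest in Control 1 and the marker sum highest in Control 3. Lyz2 alone gave 268 of the 515 CPM in IDPN-3wk 2. Median log2 differences of the C1q chains and the markers were 0.38 and -0.15 at 3 weeks, and 1.48 and 1.16 at 7 weeks. Of the 20 markers, 2 were called higher at 7 weeks, Cd14 (log2 fold change 1.00, SE 0.21, adjusted p = 0.0209) and Lyve1 (2.08, SE 0.31, adjusted p = 0.00365), and for 17 every IDPN-7wk library lay above every Control library. The Cd14 call was lost without Control 2, Control 3 or any 1 of the IDPN-7wk libraries (adjusted p up to 0.0858). edgeR called 0 of the 20 at 3 weeks (3 at an unadjusted p under 0.05, 0 by DESeq2) and 0 between 7 and 3 weeks (13 and 6). Lyz2 was the most abundant marker, no marker was at 0 in all libraries, and the part of macrophage number in the C1q values was not tested.

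**Figure D3:**
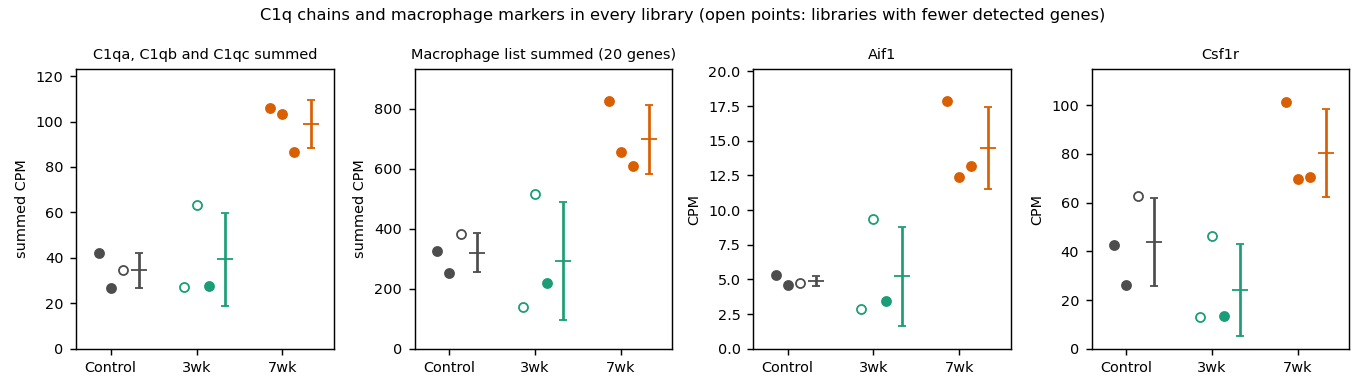
Summed CPM of the 3 C1q chains, summed CPM of the 20 macrophage markers, and CPM of Aif1 and Csf1r in every library (points; bars are mean ± SD, n = 3; open points are the libraries with fewer detected genes). IDPN-3wk 2 lies at 63.1 in the C1q sum and at 515 in the macrophage sum, above the other IDPN-3wk libraries in each.

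C1r, the protease that activates C1s, measured 50.9, 52.9 and 48.0 CPM in Control, 44.2, 61.8 and 51.8 CPM in IDPN-3wk, and 104, 85.3 and 86.3 CPM in IDPN-7wk. The IDPN-7wk libraries were all above the rest, and the other 2 groups overlapped. C1r rose at 7 weeks by 0.86 on the log2 scale (SE 0.14, 1.82-fold, adjusted p = 0.00671), a call that held with each library left out (adjusted p 0.00375 to 0.0328), and its 3-week difference was 0.06 (SE 0.14, adjusted p = 0.898). Between 7 and 3 weeks it was higher by 0.80 (SE 0.14, adjusted p = 0.0445). That call held without IDPN-3wk 2 or IDPN-3wk 3 and was lost without any 1 of the other 7 libraries. The adjusted p was 0.0960, 0.0787 and 0.0624 without Control 1, 2 and 3, 0.101 without IDPN-3wk 1, and 0.202, 0.0934 and 0.141 without IDPN-7wk 1, 2 and 3. Without the 3 libraries with fewer detected genes the log2 value was 0.82 (adjusted p = 0.0789).

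C1s, the protease that cleaves C4 and C2, measured 9.79, 5.45 and 5.85 CPM in Control, 12.6, 22.7 and 13.0 CPM in IDPN-3wk, and 44.1, 23.9 and 19.8 CPM in IDPN-7wk. Every exposed library lay above every Control library, IDPN-7wk 1 was the highest by far, and the 2 exposed groups overlapped. C1s rose at 7 weeks by 2.06 on the log2 scale (SE 0.38, 4.16-fold, adjusted p = 0.0109). Leaving out Control 2 took the adjusted p to 0.0554, and with each of the other libraries left out the call held. Its 3-week difference of 1.19 (SE 0.37) did not pass with edgeR (adjusted p = 0.155) and did with DESeq2 (adjusted p = 0.0304), and 7 against 3 weeks gave 0.86 (SE 0.37, adjusted p = 0.337).

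Serping1, whose product C1 inhibitor blocks both proteases, measured 235, 208 and 202 CPM in Control, 301, 422 and 352 CPM in IDPN-3wk, and 533, 447 and 489 CPM in IDPN-7wk. The 3 groups did not overlap, with Control lowest and IDPN-7wk highest. It was the member called at both times, rising by 0.74 on the log2 scale at 3 weeks (SE 0.13, 1.67-fold, adjusted p = 0.0203) and by 1.19 at 7 weeks (SE 0.13, 2.28-fold, adjusted p = 0.000646). Higher values were seen in 3 of 3 exposed libraries each time. The 7-week call held with each library left out (adjusted p 0.000411 to 0.00497). At 3 weeks the call was lost without Control 1, 2 or 3 (adjusted p = 0.0617, 0.0879 and 0.0730), which left 0 of 10 entries called, and in the fit without the 3 libraries with fewer detected genes (log2 value 0.67, adjusted p = 0.0720). A fit of only the 2 groups compared also lost the 3-week call (log2 value 0.74, adjusted p = 0.0592, edgeR). Within the libraries with fewer detected genes (2 IDPN-3wk, 1 Control) the 3-week difference in mean log2 of CPM plus 2 was 0.82, and within the others (1 IDPN-3wk, 2 Control) it was 0.67. The step from 3 to 7 weeks, 0.45 (SE 0.13), did not pass (adjusted p = 0.177).

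**Figure D4:**
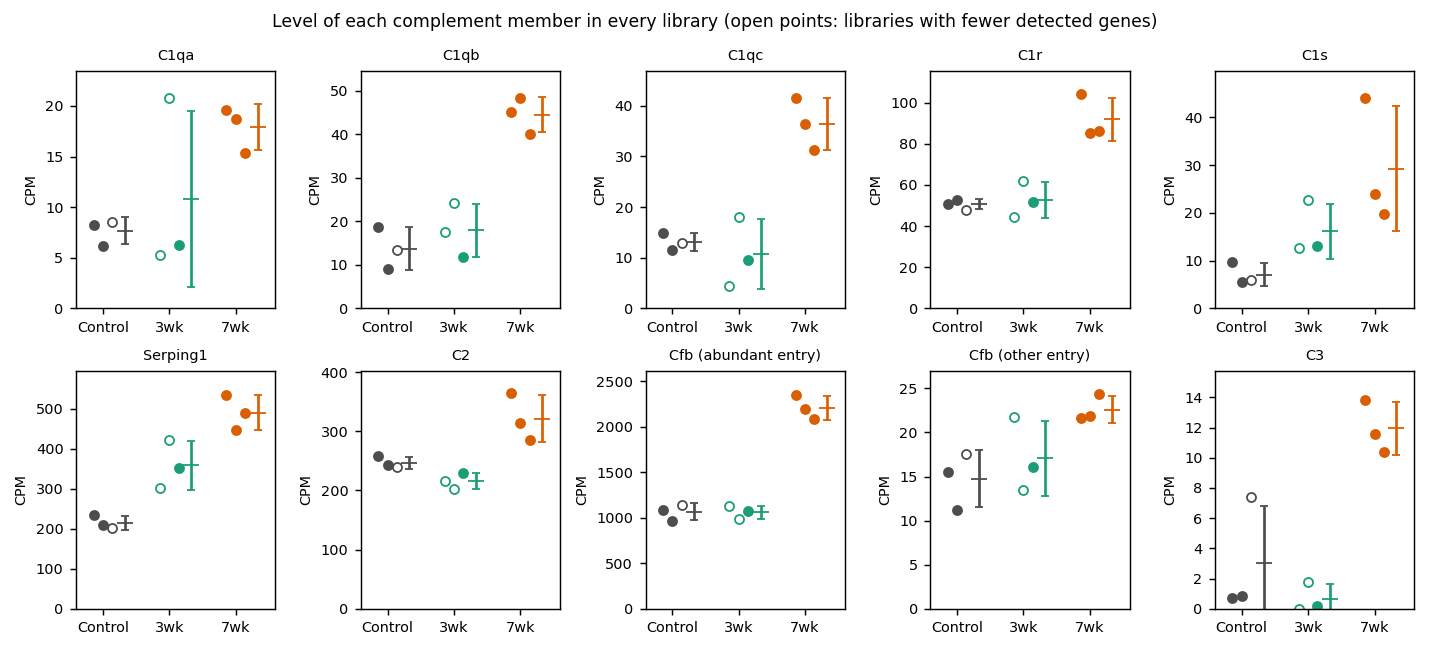
CPM of each of the 10 entries in every library (points), by group, with mean ± SD (n = 3) beside the points; open points are the 3 libraries with fewer detected genes, and each panel has its own scale from 0. Serping1 shows 3 groups apart (202 to 235, 301 to 422 and 447 to 533 CPM), and in the abundant Cfb entry only IDPN-7wk stands apart (2086 to 2348 CPM).

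The 2 Cfb entries were kept apart. The abundant entry (ENSRNOG00000051158) measured 1087, 961 and 1142 CPM in Control, 1125, 984 and 1075 CPM in IDPN-3wk, and 2348, 2189 and 2086 CPM in IDPN-7wk. Control and IDPN-3wk overlapped, and each IDPN-7wk library was far above both. Its log2 difference at 3 weeks was -0.00 (SE 0.09, adjusted p = 0.995). It rose by 1.05 at 7 weeks (SE 0.09, 2.08-fold, adjusted p = 0.000191) and by 1.06 from 3 to 7 weeks (SE 0.09, adjusted p = 0.000696). Both calls held with each library left out, with adjusted p from 0.000358 to 0.00203 and from 0.00156 to 0.00633, and without the 3 libraries with fewer detected genes (1.10, adjusted p = 0.000595, and 1.03, adjusted p = 0.0342).

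The smaller Cfb entry (ENSRNOG00000000419) ranged from 11.2 to 17.6 CPM in Control, 13.4 to 21.8 CPM in IDPN-3wk and 21.6 to 24.3 CPM in IDPN-7wk. It held 0.913% to 1.90% of the summed Cfb CPM of a library, without correction for length. Its 7-week log2 difference of 0.61 (SE 0.23) did not pass (adjusted p = 0.177) with all libraries and did without the 3 libraries with fewer detected genes (0.75, adjusted p = 0.0299).

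C2, the classical pathway counterpart of factor B, measured 257, 244 and 239 CPM in Control, 216, 202 and 230 CPM in IDPN-3wk, and 364, 313 and 285 CPM in IDPN-7wk. The groups did not overlap, and IDPN-3wk was the lowest. C2 had no call in the 3 comparisons. Its log2 differences were -0.19 at 3 weeks (SE 0.10, adjusted p = 0.407) and 0.38 at 7 weeks (SE 0.10, adjusted p = 0.0586). From 3 to 7 weeks the adjusted p of 0.0477 was under the threshold while the log2 difference of 0.57 (SE 0.10) was just short of the 0.58 required. Without IDPN-3wk 3 it was 0.62 and called (adjusted p = 0.0353).

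C3, the protein that both convertases cleave, had few counts in 5 libraries, with 26, 28 and 264 estimated counts in Control, 0, 52 and 6 in IDPN-3wk, and 680, 564 and 410 in IDPN-7wk. As levels these were 0.701, 0.877 and 7.43 CPM, then 0, 1.75 and 0.184 CPM, then 13.9, 11.6 and 10.4 CPM. The IDPN-7wk libraries were above all others, Control 3 was well above the other Control libraries, and the 0 of IDPN-3wk 1 allows up to 0.0818 CPM. C3 passed in 0 of 3 comparisons by edgeR and by DESeq2, and its unadjusted p was under 0.05 from 3 to 7 weeks alone. The log2 differences were -2.24 at 3 weeks (SE 1.26, adjusted p = 0.426), 1.99 at 7 weeks (SE 1.20, adjusted p = 0.425) and 4.23 from 3 to 7 weeks (SE 1.34, adjusted p = 0.210). With 1 library left out at a time the 7-week value ran from 1.52 to 3.92 (adjusted p 0.167 to 0.701), and the highest came without Control 3. The 3-week value ran from -5.03 without IDPN-3wk 2 (adjusted p = 0.143) to -0.31 without Control 3 (0.940), and that from 3 to 7 weeks from 3.63 without IDPN-3wk 1 (0.307) to 7.03 without IDPN-3wk 2 (0.129), and C3 was called in none of these fits. In the fit without the 3 libraries with fewer detected genes, Control 3 among them, it was 3.92 (SE 0.29, adjusted p = 0.000148), and 5.99 from 3 to 7 weeks (SE 0.49, adjusted p = 0.00808).

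Across all entries, the fit without those 3 libraries, which leaves 1 IDPN-3wk library and was added after the data had been seen, called 9 of 10 at 7 weeks, with C2 the exception, and 0 at 3 weeks (edgeR). Over all genes that fit called 1563 of 16350 at 7 weeks, beside 796 of 15517 with all libraries. DESeq2 on all libraries called 6, 2 and 4 of 10 at 7 weeks, at 3 weeks and from 3 to 7 weeks, and over all 32883 entries 1392, 826 and 585, where edgeR called 796, 256 and 75. The larger member counts thus came with more calls over all genes in number. The 32883 entries given for DESeq2 include those at 0 in every library, which it cannot call, and 19717 had a total above 0. The share called by DESeq2 is therefore not set beside that of edgeR, which tested 15517. The 3-week log2 differences without the 3 libraries (with all libraries in brackets) were -0.20 (0.49) for C1qa, -0.22 (0.38) for C1qb, -0.47 (-0.30) for C1qc, -0.00 (0.06) for C1r, 0.77 (1.19) for C1s, -0.12 (-0.19) for C2, -2.07 (-2.24) for C3, 0.07 (-0.00) for the abundant and 0.26 (0.21) for the smaller Cfb entry, and 0.67 (0.74) for Serping1.

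Members were correlated to different degrees, neighbours or not. Over the 9 libraries Pearson r of log2 CPM was 0.841 for C1qa with C1qb, 0.878 for C1qa with C1qc, 0.787 for C1qb with C1qc, 0.814 for C1r with C1s and 0.894 for C2 with the abundant Cfb entry. Members that are not neighbours reached similar or higher values, such as 0.921 for C1qc with C1r, 0.910 for C1qc with C3 and 0.906 for C1r with the abundant Cfb entry. Serping1 had its highest r among the members with C1s, at 0.955, and its lowest with C3, at 0.400. These values include the differences between groups and describe 9 libraries. Among other genes with a mean of at least 5 CPM, the profiles most like the mean C1q profile were Aif1 (r = 0.977), Fcer1g (0.948) and LOC100911825 (0.947), the first and second of them macrophage markers of the list above. Closest to C1r and C1s were Krt7 (0.989), Stat3 (0.987) and Hspb1 (0.981). Closest to C2 and Cfb were Dtx3l (0.979), Pml (0.977) and Als2cl (0.973). Csf1r (0.953) and Ctss (0.950), both on the macrophage list, and Slc26a2 (0.952) were closest to C3, and Pacsin3 (0.986), Zdhhc20 (0.981) and Aqp1 (0.979) to Serping1.

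Other complement genes gave 38 tested entries from 56 listed symbols. At 3 weeks 1 was called (C7, lower), at 7 weeks 3 (Clu higher, C7 and Susd4 lower), and from 3 to 7 weeks edgeR called 0, with 4 at an unadjusted p under 0.05 and 2 called by DESeq2. Their median log2 differences were 0.05, 0.21 and 0.27, beside 0.13, 1.21 and 0.83 for the members. Clu, a fluid-phase regulator of the membrane attack complex, rose by 0.70 at 7 weeks (SE 0.13, adjusted p = 0.00926). C7, a subunit of that complex, fell by 1.34 on the log2 scale at 3 weeks (SE 0.26, adjusted p = 0.0309), and at 7 weeks it fell by 1.03 (SE 0.26, adjusted p = 0.0433). Neither C7 call held without any 1 of the Control libraries. The 3-week call was also lost without IDPN-3wk 1, IDPN-3wk 2 or IDPN-7wk 1 (adjusted p up to 0.114) and without the 3 libraries with fewer detected genes (0.149), and the 7-week call without any 1 IDPN-7wk library (up to 0.156). With only the 2 groups compared, edgeR called 0 other complement genes at 3 weeks, so the C7 call was lost there too. The 3-week difference of C7 in mean log2 of CPM plus 2 was -1.57 within the libraries with fewer detected genes and -0.80 within the others. Susd4, a membrane regulator, fell by 1.28 at 7 weeks (SE 0.18, adjusted p = 0.00310). Among the more abundant genes of these branches, no call was made at 7 weeks for Colec12 at -0.20, Masp1 at 0.37, Cfp at 1.39, C6 at 1.19, Cd59 at -0.11, Calr at -0.33 and Lrp1 at -0.03. C4b and C4a, the listed genes of C4, a substrate of C1s, were named after their values were seen. C4b measured 0.535 to 2.29 CPM in Control, 3.57 to 8.48 CPM in IDPN-3wk and 3.81 to 5.11 CPM in IDPN-7wk. edgeR did not call C4b at 3 weeks (1.80, SE 0.57, adjusted p = 0.157) or at 7 weeks (1.39, SE 0.56, adjusted p = 0.206), and DESeq2 called it at 3 weeks. C4a measured 0.998 to 1.91 CPM in Control, 0.892 to 2.15 CPM in IDPN-3wk and 2.03 to 2.55 CPM in IDPN-7wk. edgeR did not call C4a at 3 weeks (-0.03, SE 0.59, adjusted p = 0.989) or at 7 weeks (0.73, SE 0.59, adjusted p = 0.579). Among those listed at 0 in every library were Mbl1, Colec10, C8a, C8b, Cpn2 and Apcs.

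Interferon and STAT signalling genes were examined beside the members, and several encode factors whose motifs were searched. Of 16 tested, 5 were called higher at 7 weeks, among them (log2 fold change in brackets) Stat2 (1.28), Stat3 (1.07), Irf7 (2.91) and Irf9 (1.41). From 3 to 7 weeks 3 were called higher, among them Stat2 (1.43) and Irf7 (2.28), and the Irf7 call was lost without any 1 of 6 libraries (Control 1, Control 2, IDPN-3wk 2 and each IDPN-7wk library; adjusted p up to 0.187). At 3 weeks edgeR and DESeq2 called 0, and 5 had an unadjusted p under 0.05. Ifnb1 and Ifng were at 0 in all libraries, and Jak1 was the most abundant of the list. Of 15 NF-kB, IL6 and acute phase regulators, 3 were called higher at 7 weeks: Cebpd (1.44), Osmr (2.32) and Socs3 (2.10). The Osmr call was lost without Control 2, Control 3, IDPN-7wk 1 or IDPN-7wk 2 (adjusted p up to 0.0948), and the Socs3 call without Control 1, Control 2, IDPN-3wk 3 or any 1 of the IDPN-7wk libraries (up to 0.181). Il6st was the most abundant of this list, and Il6 was at 0 in all libraries. The part of these factors in the complement values was not tested.

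**Figure D5:**
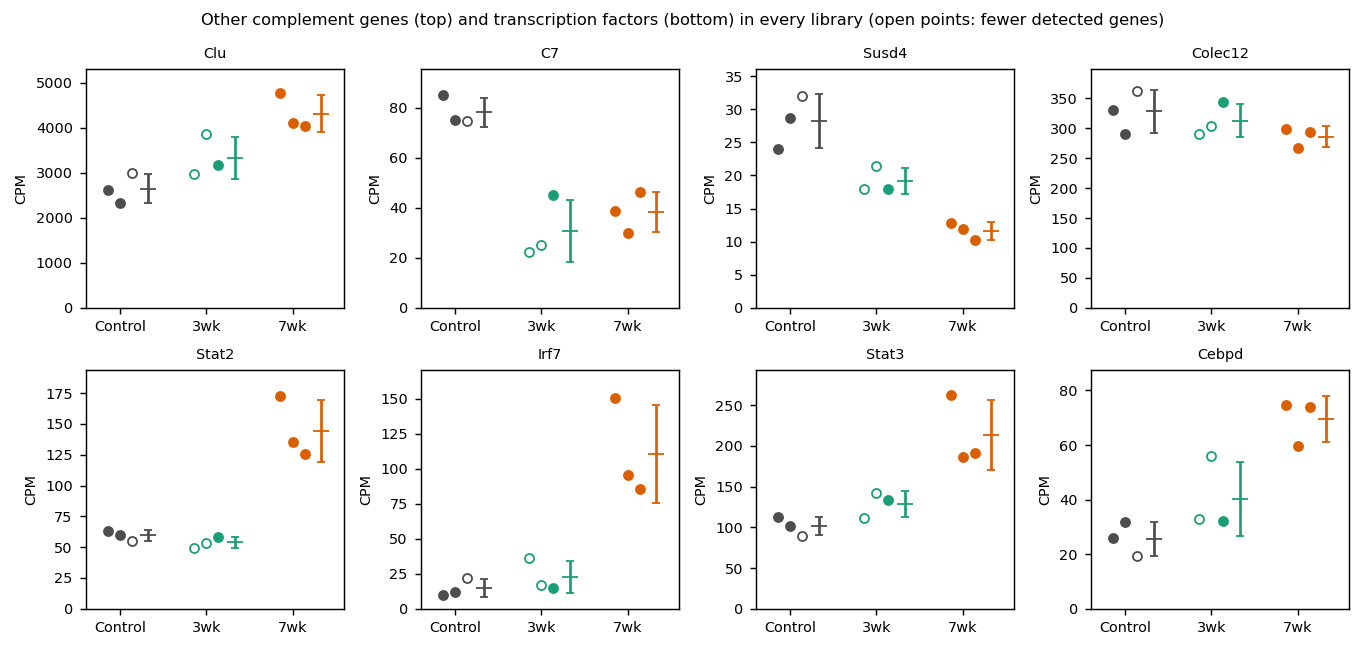
CPM of Clu, C7, Susd4 and Colec12 (top) and of Stat2, Irf7, Stat3 and Cebpd (bottom) in every library, with mean ± SD (n = 3) beside the points; open points are the libraries with fewer detected genes. Clu and the transcription factors were higher at 7 weeks, C7 and Susd4 lower, and Colec12 had no call.

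Markers of the tissue itself moved too. Hair cell markers were called lower for 5 of 13 at 3 weeks and 9 of 13 at 7 weeks, and their sum was 2388, 2779 and 2293 CPM in Control, 1294, 1371 and 1010 CPM in IDPN-3wk and 1098, 1057 and 1181 CPM in IDPN-7wk. Of the 3-week calls, that of Calb2 was lost in 7 of 9 fits that left out 1 library (any 1 of the Control or IDPN-3wk libraries, or IDPN-7wk 3; adjusted p up to 0.120) and without the 3 libraries with fewer detected genes (0.202), and that of Tmc1 without Control 2 (adjusted p = 0.0515), so the fit without Control 2 lost both. Fewer hair cells and less of these RNAs per hair cell cannot be told apart here, and the part of either in the complement values was not tested.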

How the data were processed

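RNA was measured in 9 libraries of rat vestibular epithelium, 3 per group. According to the submitters' processing notes, reads were mapped with STAR 2.5.3a to Rnor6.0 and quantified with RSEM 1.3.0. The authors obtained the deposited values, which are estimated counts (expected counts of RSEM) for each gene, from the mapped reads, and deposited them as whole numbers that were not normalized. They were used as given. The strand setting of the counting was not stated. The table columns carry no replicate numbers, which were assigned in the order of the sample records. Symbols are shared by 4258 entries, so genes were followed by Ensembl identifier.

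Software versions were 4.3.3 for R, 4.0.16 for edgeR, 3.58.1 for limma and 1.42.0 for DESeq2. Entries kept by filterByExpr (15517) were normalized by TMM and tested with edgeR's robust quasi-likelihood test in 1 fit of all 9 libraries with a mean per group (residual degrees of freedom 6, prior degrees of freedom 4.07 at the median). P-values were adjusted by Benjamini-Hochberg over all entries tested, separately for each of 3 comparisons. Genes were called at the study's thresholds, a fold change above 1.5 with an adjusted p under 0.05. Tests are two-sided. An exact permutation test of 3 against 3 libraries cannot go below p = 0.1 and was not used. Standard errors are from the same fit.

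Levels are CPM after TMM, and lowest levels are given against a floor of 3 counts. PCR copies could not be told apart for want of molecular identifiers, so floors cover counting error only. CPM was not corrected for gene length, so ranks, sums and shares over several genes (the most abundant gene of a list, marker sums, the 2 Cfb entries) can reflect length. Correlations and profiles used log2 CPM with a prior count of 2. Detected genes were compared after drawing each library down to the lowest total.

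Named are all members, other complement genes with a call or among the 2 most abundant of a branch, called genes and the most abundant gene of each marker or regulator list, and the 3 genes most like each role group by Pearson r. The members and lists were chosen with earlier results of these data known. Marker lists covered macrophages, neutrophils, lymphocytes, blood, liver, fibroblasts, endothelium, Schwann cells, melanocytes, hair cells, supporting cells and dark cells, with 2 lists of signalling genes. The promoter motifs were chosen after the sequences had been seen, and the NF-kB form was tightened after a looser one matched widely.

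Alternatives were DESeq2, RLE size factors, no filter, a minimum of 10 counts per library throughout, a fit of only the 2 groups compared, no fold change threshold, a fold change above 2, and leaving out 1 library at a time. Chosen later, with the data seen, were a covariate for the 3 libraries with fewer detected genes, a fit without them, and both Cfb entries summed. The edgeR and DESeq2 tests were tested on simulated data with known changes, where edgeR missed many changed genes, more of them at the smaller fold size, and DESeq2 recovered more but made many more false calls than edgeR. The simulated counts used the spread estimated by edgeR, had changes in IDPN-7wk alone and held no library that stood apart. They therefore do not rank the 2 tools on these data. No set test was run, and other rat and mouse experiments of the study were left out.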

Additional observations from a re-analysis of the deposited data

Results flagged for a closer look

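The IDPN-7wk and IDPN-3wk groups differed for 2 entries when tested against each other (edgeR, 3 libraries each). With no Control group for each time, longer exposure and greater age cannot be told apart in this difference. For the abundant Cfb entry the log2 difference was 1.06 (adjusted p = 0.000696), with every IDPN-7wk library above every IDPN-3wk library. For C1r it was 0.80 (adjusted p = 0.0445), also with groups apart, and that call was lost without any 1 of 7 libraries, namely the 3 Control libraries (adjusted p = 0.0960, 0.0787 and 0.0624), IDPN-3wk 1 (0.101) and the 3 IDPN-7wk libraries (0.202, 0.0934 and 0.141). The C1r call was also lost in the fit without the 3 libraries with fewer detected genes. No cause was tested.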

How the results depend on the processing

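No paired analysis was possible because the columns carry no replicate numbers, each library is a different rat, and the code in the sample titles is shared across groups by 1 pair only (IDPN-3wk 1 and IDPN-7wk 1). Members called at 3 weeks (1) became 2 with DESeq2 and 0 with only the 2 groups compared, with a fold change above 2 and without the 3 libraries with fewer detected genes, and ranged from 0 to 1 with each library left out (all genes 256, then 826, 118, 159 and 219, range 75 to 439). At 7 weeks the 5 called members became 7 with only the 2 groups and 4 with a fold change above 2. They became 6 with DESeq2, with no filter and with a 10-count minimum, which tests 9 members. With each library left out they ranged from 4 to 7, and the fit without those libraries is described in the results above. Over all genes the 796 calls of 15517 tested at 7 weeks became 1249 of 15243 with only the 2 groups and 480 with a fold change above 2. They became 819 of 19717 with no filter and 908 of 12913 with the 10-count minimum (range 432 to 969). The share called was thus larger with only the 2 groups and with the 10-count minimum, and smaller with no filter. DESeq2 made 1392 calls over the 32883 table entries, which include those at 0 in every library, so its share is not compared. Between 7 and 3 weeks the 2 called became 4 with DESeq2 and 1 with only the 2 groups, with a fold change above 2 and with the covariate for fewer detected genes, and ranged from 1 to 4 (all genes 75, then 585, 46, 56 and 37, range 39 to 445). Other complement genes called at 3 weeks (1) became 3 with DESeq2, 0 with only the 2 groups and 0 without the 3 libraries (range 0 to 3). At 7 weeks (3) they became 5 with DESeq2, 6 with only the 2 groups and 9 without the 3 libraries (range 2 to 4). Between 7 and 3 weeks (0; 4 at an unadjusted p under 0.05) they became 2 with DESeq2 (range 0 to 1). Causes were not tested. Of 168 log2 values of the members per comparison, 6, 13 and 17 changed their side of the threshold at 3 weeks, at 7 weeks and between them, and no called value changed sign. The covariate, the fit without the 3 libraries and the summed Cfb entries were chosen after seeing the data, and the lone IDPN-3wk library left in that fit is assumed to vary like the other groups. C3 had 52 counts or fewer in 5 libraries, and its SE at 7 weeks was 1.20 with all libraries and 0.29 without the 3, which still holds low counts, so spread between libraries and low counts were not separated.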

Other observations

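The tissue and cell type lists that the results above do not describe gave these values, by edgeR in the same fit. Of 12 supporting cell markers, 1 was called lower at 3 weeks (Otogl, log2 fold change -0.94) and 3 at 7 weeks (Gjb6 -1.03, Otog -1.26, and Otogl at 0.499 times Control), and Gjb6 was called lower between 7 and 3 weeks (-0.69), a call lost in 6 of 9 fits that left out 1 library and without those with fewer detected genes (adjusted p = 0.0820). Of 5 dark and transitional cell markers, Bsnd was called higher at 3 weeks (1.34, lost without Control 2 at adjusted p = 0.0605 and without the 3 libraries with fewer detected genes at 0.0744), and Slc12a2 (-1.33) and Kcnq1 (-1.46, lost in 4 of 9 fits and, at 0.0624, without those 3 libraries) were called lower at 7 weeks. Of 7 Schwann cell markers, 3 were called lower at 7 weeks, Mbp (-1.15), Pmp22 (-1.08) and Ncmap (-1.24), and these were lost in 5, 7 and 3 of 9 fits, those of Mbp and Pmp22 also without the same 3 libraries (adjusted p = 0.105 and 0.0768). The hair cell calls at 7 weeks included Ptprq (-1.49), Myo15a (-1.65), Espn (-1.47), Slc17a8 (-2.31), Tmc1 (-1.02) and Otof (0.499 times Control), each with 0 of 9 fits losing the call. Pou4f3 (-0.62), Calb2 (-1.41) and Cdh23 (-1.29) were also called at 7 weeks and lost in 4, 4 and 5 of 9 fits.

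Among 8 fibroblast markers Lum was called lower at 7 weeks (-1.83, lost in 4 of 9 fits), and among 7 endothelial and pericyte markers Cdh5 was called higher (0.67, lost in 8 of 9) and Flt1 lower (-0.66, lost in 5 of 9). Pdgfra and Pdgfrb, the most abundant of these lists, had no call. For neutrophil, lymphocyte, erythroid, liver and melanocyte markers edgeR called 0 of 3, 0 of 3, 0 of 4, 0 of 2 and 0 of 4 tested at 7 weeks. At an unadjusted p under 0.05 there were 0, 0, 0, 2 and 1, and DESeq2 called 0, 0, 0, 1 and 0. The liver list's tested genes, Ttr and Serpina1, had log2 differences of 3.79 (SE 1.47) and -1.85 (SE 0.55) at 7 weeks. Ttr measured 0 to 1.25 CPM in Control, 1.85 to 13.5 CPM in IDPN-3wk and 0.183 to 16.2 CPM in IDPN-7wk, with a log2 difference of 3.92 at 3 weeks, and Serpina1 was present in all libraries (1.16 to 11.6 CPM). At 3 weeks edgeR called 0 in each of these 5 lists, with 0, 0, 3, 2 and 0 at an unadjusted p under 0.05 and 0, 0, 1, 1 and 0 by DESeq2. The most abundant genes were Csf3r, Cd4, Hba-a2, Ttr and Pmel. Alb, Elane and Ms4a1 were at 0 in all libraries.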
